A study of Mus musculus with 15 samples.

Results

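Activins, the proteins that bind and neutralise them, and the receptors through which they signal were followed as RNA in mouse fibroblasts treated by 4 cytokines. The genes were *Inhba* and *Inhbb* (activin subunits), *Fst*, *Fstl3* and *Fstl1* (follistatin and its relatives), and *Acvr1*, *Acvr1b*, *Acvr2a* and *Acvr2b* (receptors). They were chosen by name, as the microarray probes whose systematic name is a RefSeq transcript of 1 of these 9 genes. All 9 are on the array, among 23462 genes that could be named, with 14 of its 56605 distinct probes, and all 14 were bright enough to be tested. *Inhba*, *Fstl1*, *Acvr1*, *Acvr2a* and *Acvr2b* have 2 probes each, and a gene is given by its brighter probe unless the other is named.

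The cells were MEFs of an established line, Balb/c/3T3 clone A31, so the replicates were cultures of 1 line and not separate animals. The 5 groups of 3 one-color arrays were untreated controls and cells given TNFα at 10 ng/ml, TGFß1 at 5 ng/ml, IL-1β at 1 ng/ml, or IL-6 at 20 ng/ml together with its soluble receptor sIL6Rα at 25 ng/ml. Stimulation lasted 24 h for the controls, TNFα and TGFß1, per the study. The labels name culture times of 24 and 72 h without tying either to an array, so it is not known here which of them the IL-1β and IL-6 arrays had, and their comparisons with the other groups may be between different times. The study's design asks how a proinflammatory (TNFα) and a profibrotic (TGFß1) stimulus polarize the fibroblast, and arrays are called here by their treatment and the number in their label.

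Activins are dimers of the beta subunits encoded by *Inhba* and *Inhbb*, and belong to the TGF-ß superfamily. They bind a type II receptor (*Acvr2a* or *Acvr2b*), which phosphorylates a type I receptor, chiefly the product of *Acvr1b* (ALK4), and the signal then runs through SMAD2 and SMAD3, the same intracellular mediators that TGF-ß uses. Follistatin (*Fst*) and the follistatin-like 3 protein (*Fstl3*) wrap around activin and block receptor binding, while *Fstl1*, a secreted glycoprotein abundant in mesenchymal cells, shares the follistatin domain. *Acvr1* (ALK2) is a type I receptor best known for BMP signalling through SMAD1 and SMAD5. Activin A, the dimer of *Inhba* products, is known as a product of stimulated fibroblasts in wound repair and fibrosis.

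Levels are log2 processed signals minus the 75th percentile of the same array, so 0 is the brightness that 75% of the array's probes do not reach, and levels are compared between arrays for the same probe only. That percentile lay between 325 and 445 signal units before scaling. A call required a fold-change of 1.5 or more and q under 0.05, in a limma fit of all 15 arrays with Benjamini-Hochberg adjustment over 29334 probes tested. The arrays lie on 2 slides. Controls 1 and 11, TNFα 14, TGFß1 7, IL-1β 5 and 10 and IL-6 3 and 8 are on the first. Control 6, TNFα 4 and 9, TGFß1 2 and 12, IL-1β 15 and IL-6 13 are on the second, so treatment and slide are partly tied. Replicates correlated at 0.990 to 0.995 within a slide and at 0.977 to 0.985 across slides. Genes known to answer each cytokine did so in the labelled group: *Smad7* rose by 2.02 (log2) with TGFß1, *Tnfaip3* by 3.84 with TNFα and by 1.34 with IL-1β, and *Socs3* by 2.39 with IL-6. All 10 fibroblast markers on the list were well above background on every array, as were *Cd68* and *Cd3e* of 6 leukocyte markers (control means of -0.83 and -0.91) and *Pecam1* of 4 endothelial markers (-3.42). The other leukocyte markers *Ptprc*, *Adgre1*, *Lyz2* and *Cd79a* and the endothelial markers *Cdh5*, *Kdr* and *Tek* did not pass the filter on dim probes, with *Cd79a* well above background on 2 TNFα arrays.

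**Figure D1:**
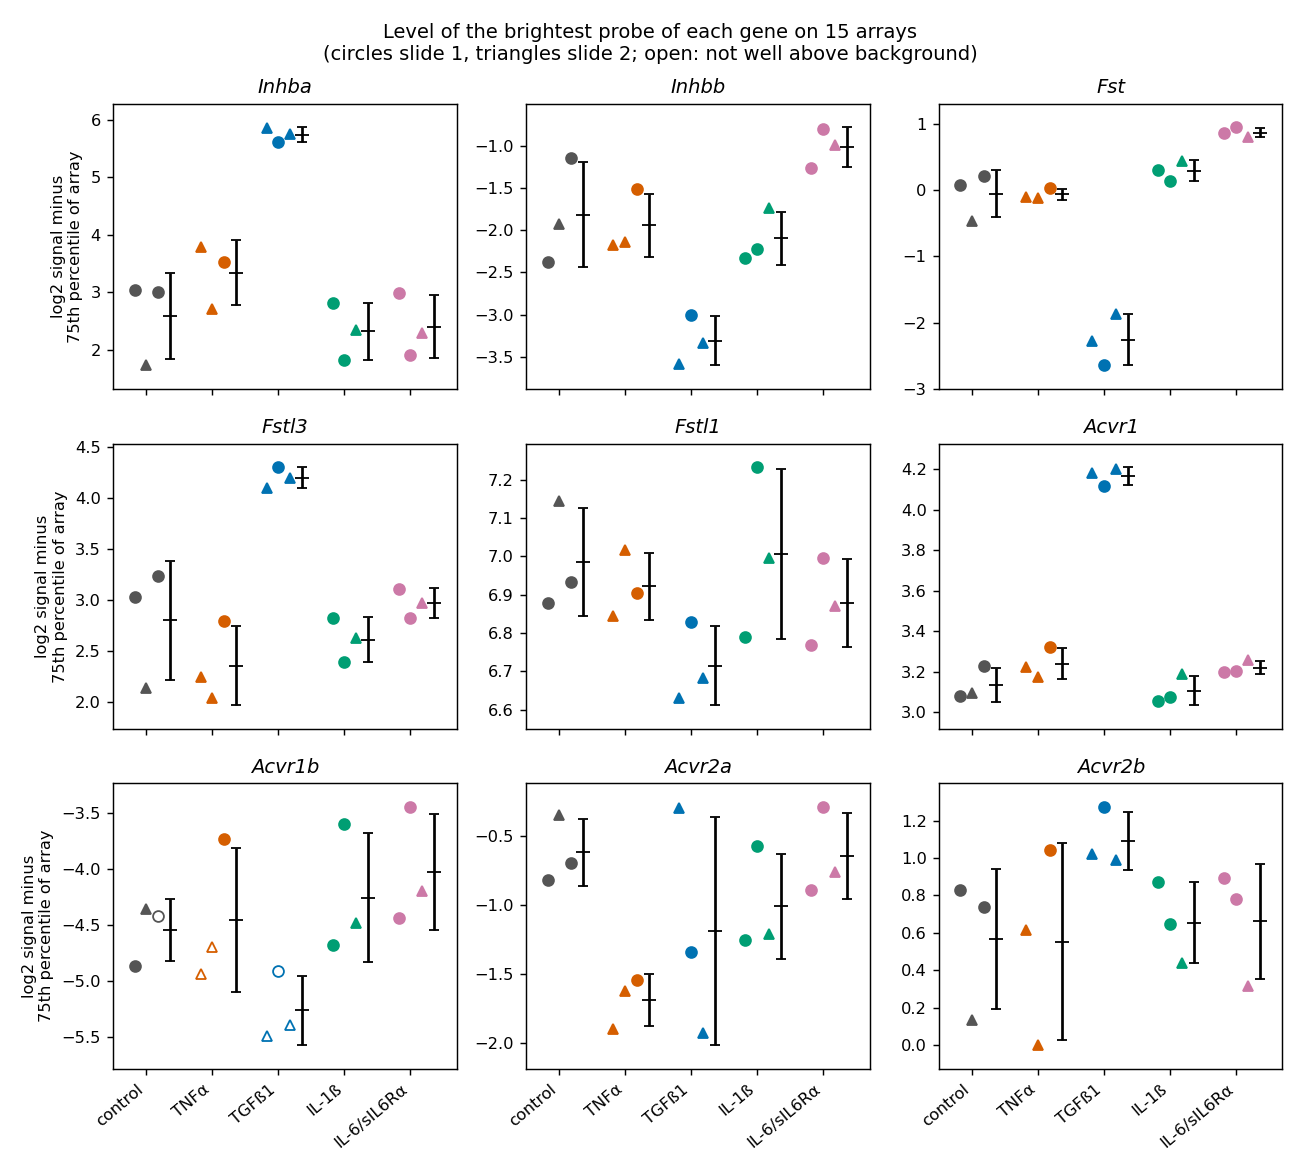
Level of each gene on every array, as log2 signal minus the array's 75th percentile (y axis), by group (x axis), with circles for slide 1, triangles for slide 2, open symbols for spots not well above background, and a bar for the mean ± SD of the 3 arrays. The 3 TGFß1 arrays stood above all others for Inhba (5.61 to 5.85), Fstl3 (4.10 to 4.30) and Acvr1 (4.11 to 4.20), and below all others for Inhbb (-3.58 to -3.00) and Fst (-2.64 to -1.87).

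TGFß1 changed both sides of the activin system. The activin A subunit *Inhba*, the antagonist *Fstl3* and the receptor *Acvr1* were higher than in controls, and the activin B subunit *Inhbb* and follistatin (*Fst*) were lower. In all, 5 of the 9 genes were called, 3 higher and 2 lower, where 17.9% of all probes tested were called, 7.51% higher and 10.4% lower. Genes are counted here by their brighter probe, while such shares cover all probes tested, dimmer and unnamed ones included. The median log2 fold-change of the 9 genes was -0.27, against 0.07 over all probes tested. A lack of overlap was common: all TGFß1 arrays lay above all controls for 19.9% of all probes tested, and below them for 18.9%. In these bulk cultures, a change in the share of cells that express a gene and a change in RNA per cell cannot be told apart.

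The level of *Inhba* was 3.04, 1.73 and 3.01 on controls 1, 6 and 11, and 5.85, 5.61 and 5.76 on TGFß1 arrays 2, 7 and 12. The TGFß1 arrays agreed closely (SD 0.12), while control 6, the control of the second slide, lay apart from the other 2 (SD of the controls 0.75). Expression was 8.85-fold higher with TGFß1, a log2 fold-change of 3.15 ± 0.40 (SE, n = 3 arrays per group; limma, q = 0.000184). Taken within the slides, the difference was 2.58 on the first and 4.08 on the second. The other *Inhba* probe, which is dimmer, gave 3.42 ± 0.36 (limma, q = 4.6e-05). *Inhba* had the widest range of group means of the 9 genes, 3.42 between TGFß1 and IL-1β.

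*Inhbb* moved the other way. Its level was -2.37, -1.92 and -1.15 on controls 1, 6 and 11 and -3.58, -3.00 and -3.34 on TGFß1 arrays 2, 7 and 12. It fell by 1.49 ± 0.30 (log2, SE), or 2.81-fold (limma, q = 0.00348), with no overlap between the groups although the controls spread over more than 1 log2 unit. TGFß1 minus control was -1.24 on the first slide and -1.54 on the second.

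Of the antagonists, *Fst* showed the largest fall. Its level was 0.08, -0.46 and 0.22 on controls 1, 6 and 11 and -2.27, -2.64 and -1.87 on TGFß1 arrays 2, 7 and 12. This is a log2 fold-change of -2.20 ± 0.20 (SE), 4.61-fold lower (limma, q = 1.51e-05). Within the slides, TGFß1 minus control was -2.79 on the first and -1.61 on the second. *Fstl3*, which binds activin in the same manner, rose instead. It stood at 3.03, 2.13 and 3.24 on controls 1, 6 and 11 and at 4.10, 4.30 and 4.20 on TGFß1 arrays 2, 7 and 12, a log2 fold-change of 1.40 ± 0.26 (SE), 2.64-fold higher (limma, q = 0.0023). Within the slides, the *Fstl3* difference was 1.17 on the first and 2.01 on the second. *Fstl1* varied little, from 6.63 to 7.23 over the 15 arrays. Its TGFß1 arrays (6.63, 6.83 and 6.68) lay just below the controls (6.88, 7.14 and 6.93), and the difference of -0.27 did not pass the test (95% interval -0.55 to 0.01, limma q = 0.153). Its dimmer probe also lay lower on all TGFß1 arrays (5.53, 5.74 and 5.51) than on all controls (5.91, 6.06 and 5.86), as did 18.9% of all probes, and was not called.

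Among the receptors, *Acvr1* alone was called with TGFß1. It was at 3.08, 3.10 and 3.23 on controls 1, 6 and 11 and at 4.18, 4.11 and 4.20 on TGFß1 arrays 2, 7 and 12, with the smallest SD of any gene in both groups. The rise was 2.04-fold, a log2 fold-change of 1.03 ± 0.09 (SE; limma, q = 1.3e-05), and its dimmer probe gave 0.93 ± 0.14 (limma, q = 0.000457). *Acvr2b*, a type II receptor, had levels of 0.83, 0.14 and 0.74 on controls 1, 6 and 11 and 1.02, 1.27 and 0.99 on TGFß1 arrays 2, 7 and 12. All TGFß1 arrays were above all controls, as for 19.9% of all probes, but the difference of 0.53 ± 0.26 (SE) did not pass (limma, q = 0.168). It passed with the slide as a block (0.69, limma q = 0.00603), where 20.3% of all probes were called, and with slide and run as blocks (0.70, limma q = 0.000436), where 22.7% were called. A run is a stretch of 5 label numbers holding all groups once, of which there are 3, starting at arrays 1, 6 and 11.

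The other receptors gave no call on their brighter probe. *Acvr1b* was dim: it was well above background on 2 of 3 control arrays, on 1 TNFα array and on none of the TGFß1 arrays, but on all IL-1β and IL-6 arrays. Its level was -4.87, -4.36 and -4.42 on the controls and -5.49, -4.91 and -5.39 with TGFß1, a difference of -0.71 ± 0.36 (SE) that did not pass (limma, q = 0.179). *Acvr2a* differed between its probes. On the brighter probe the controls read -0.82, -0.35 and -0.70 and the TGFß1 arrays -0.30, -1.35 and -1.93, with TGFß1 array 2 above all controls, and the difference of -0.57 ± 0.34 (SE) did not pass (limma, q = 0.25). On the other probe the TGFß1 arrays read -1.85, -1.40 and -1.88, all below the controls at -1.17, -0.75 and -1.26, and the gene fell by 0.65 ± 0.20 (limma, q = 0.029). That call was lost without control 6, TGFß1 2 or TGFß1 12, while the brighter probe passed, at -1.02, without TGFß1 2.

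The 5 calls with TGFß1 were made under each of the 12 other settings tried and with each of the 6 control and TGFß1 arrays left out in turn. Markers of other cell types were read beside them. Of 4 epithelial markers, *Krt8* was called higher with TGFß1, at least 3.36-fold, from spots that were not well above background on the controls. *Krt18* gave 1.78 (limma, q = 0.172), and was called with slide and run as blocks, where 22.7% of all probes were. Both passed the filter on dim probes only through the TGFß1 arrays, so a higher level there was built into their selection and is given as a description. *Epcam* and *Cdh1* did not pass the filter. The summed signal of the 4 markers was 0.221 to 0.590 of the array's 75th percentile with TGFß1 and 0.0623 to 0.191 in controls. The defining epithelial marker *Cdh1* was not well above background on any array, and *Epcam* was so on 1 TGFß1 array only. The 6 leukocyte markers summed to 1.15 to 1.30 with TGFß1 and 1.05 to 1.24 in controls.

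**Figure D2:**
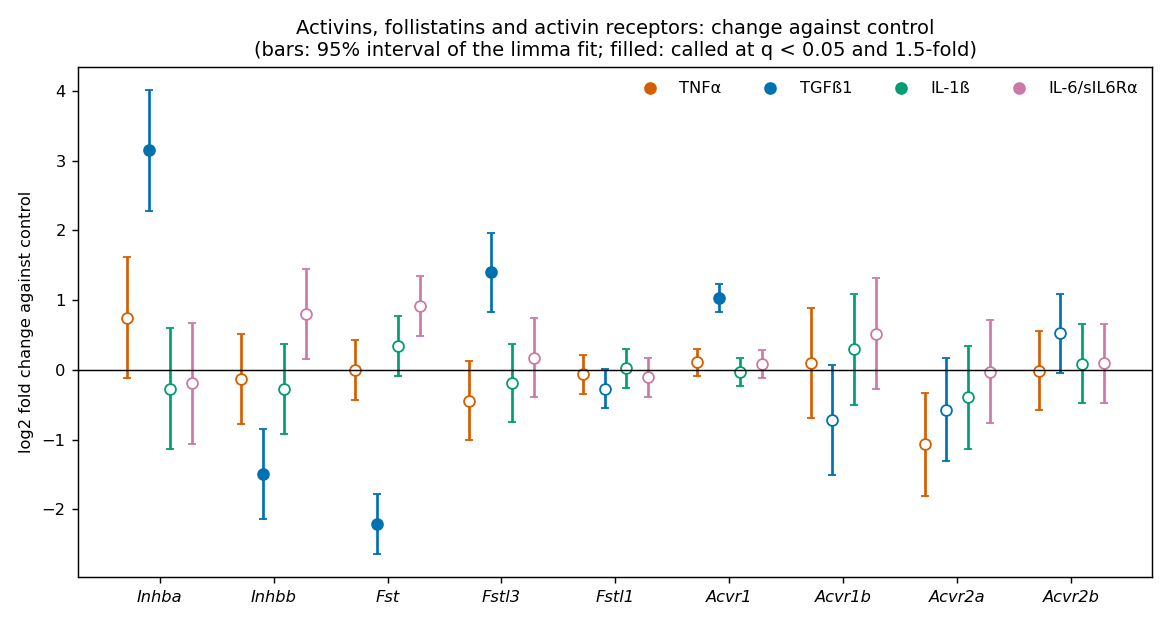
Log2 fold-change against control (y axis) of the 9 genes (x axis) with each treatment, with the 95% interval of the limma fit as a bar and filled circles for called genes. The 5 filled circles are all TGFß1 (Inhba 3.15, Fstl3 1.40, Acvr1 1.03, Inhbb -1.49 and Fst -2.20), and the treatments share the same control arrays.

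The stretches of genome before the starts of the 4 called genes that have a promoter window in RefSeq (assembly GRCm38.p6) are shown because these are the genes whose RNA changed with TGFß1, *Inhba*, *Fstl3* and *Acvr1* upward and *Inhbb* downward. A window runs from 250 bases before to 50 bases after the start, 8 of the 9 genes have one, and *Fst* does not. Each was searched on both strands for TGANTCA, the core of AP-1 sites, and for CAGACA, a SMAD binding element, which do not overlap each other. The 250 bases before the start are printed 5′ to 3′ on the strand of the gene, with capitals for a match.
Inhba (chr13:16011601-16011850, plus strand): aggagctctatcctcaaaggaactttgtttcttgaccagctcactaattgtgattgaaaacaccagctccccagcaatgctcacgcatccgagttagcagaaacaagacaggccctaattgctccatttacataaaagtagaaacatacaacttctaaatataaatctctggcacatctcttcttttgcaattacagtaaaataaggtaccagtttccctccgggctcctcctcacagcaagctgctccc
Inhbb (chr1:119422249-119422498, minus strand): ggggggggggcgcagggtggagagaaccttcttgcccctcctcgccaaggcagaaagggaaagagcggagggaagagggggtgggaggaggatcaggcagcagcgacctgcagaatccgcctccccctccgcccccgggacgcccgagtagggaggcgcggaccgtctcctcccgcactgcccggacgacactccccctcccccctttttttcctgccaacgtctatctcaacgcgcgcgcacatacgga
Fstl3 (chr10:79777024-79777273, plus strand): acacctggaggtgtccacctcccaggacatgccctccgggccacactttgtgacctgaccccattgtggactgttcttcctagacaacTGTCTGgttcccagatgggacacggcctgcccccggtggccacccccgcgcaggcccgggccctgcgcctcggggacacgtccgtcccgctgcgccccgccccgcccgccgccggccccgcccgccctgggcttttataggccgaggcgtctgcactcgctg
Acvr1 (chr2:58566829-58567078, minus strand): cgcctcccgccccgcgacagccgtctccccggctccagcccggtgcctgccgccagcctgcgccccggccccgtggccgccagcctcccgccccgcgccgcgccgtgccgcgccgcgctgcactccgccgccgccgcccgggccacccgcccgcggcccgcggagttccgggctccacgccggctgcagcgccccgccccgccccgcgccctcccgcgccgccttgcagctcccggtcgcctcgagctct

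The only match in the 8 windows was a SMAD element in *Fstl3*, on the strand opposite to the gene, from position -162 counted from the start. Of 32851 RefSeq windows of the same 300 bases, 21.0% held CAGACA and 7.81% held TGANTCA. The windows of *Inhbb*, *Fstl1*, *Acvr1*, *Acvr1b*, *Acvr2a* and *Acvr2b* held neither, nor did that of *Inhba*. The *Inhba* window was the least rich in G and C, at 47.7%, against 64.3% to 83.7% in the other 7. A match is a description of letters in this window only.

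With TNFα, none of the 9 genes was called, where 10.0% of all probes were. At an unadjusted p below 0.05, 1 of 9 passed (25.9% of all probes). *Inhba* read 3.78, 2.71 and 3.53 on TNFα arrays 4, 9 and 14, overlapping the controls, with a log2 fold-change of 0.75 ± 0.40 (SE; limma, q = 0.268). With slide and run as blocks it was called at 0.86 (limma, q = 0.000775), where 15.4% of all probes were called. Its dimmer probe was higher on all TNFα arrays than on all controls, as were 13.1% of all probes, with 0.91 ± 0.36 (limma, q = 0.125). No change of *Fst* was detectable (-0.01, 95% interval -0.44 to 0.42), nor of *Acvr1* (0.11, 95% interval -0.09 to 0.30) or *Inhbb* (-0.13, 95% interval -0.77 to 0.52). *Fstl3* gave a log2 fold-change of -0.44 (limma, q = 0.316), and was called without control 6, at -0.78.

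The type II receptor *Acvr2a* was the gene nearest to a call with TNFα. Its brighter probe read -1.90, -1.63 and -1.54 on TNFα arrays 4, 9 and 14, all below the controls, as did 15.8% of all probes. This probe gave a log2 fold-change of -1.07 ± 0.34 (SE, limma q = 0.0598). It was called under 6 of the 12 other settings, among them slide and run as blocks (-1.09, limma q = 0.0385). Its other probe was called, at -0.74 ± 0.20 (limma, q = 0.026). That call was made under 9 of the 12 settings and was lost in the fits without control 6, TNFα 4 or TNFα 14. *Acvr2b*, the second type II receptor, gave -0.01 ± 0.26 (SE; limma, q = 0.982).

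**Figure D3:**
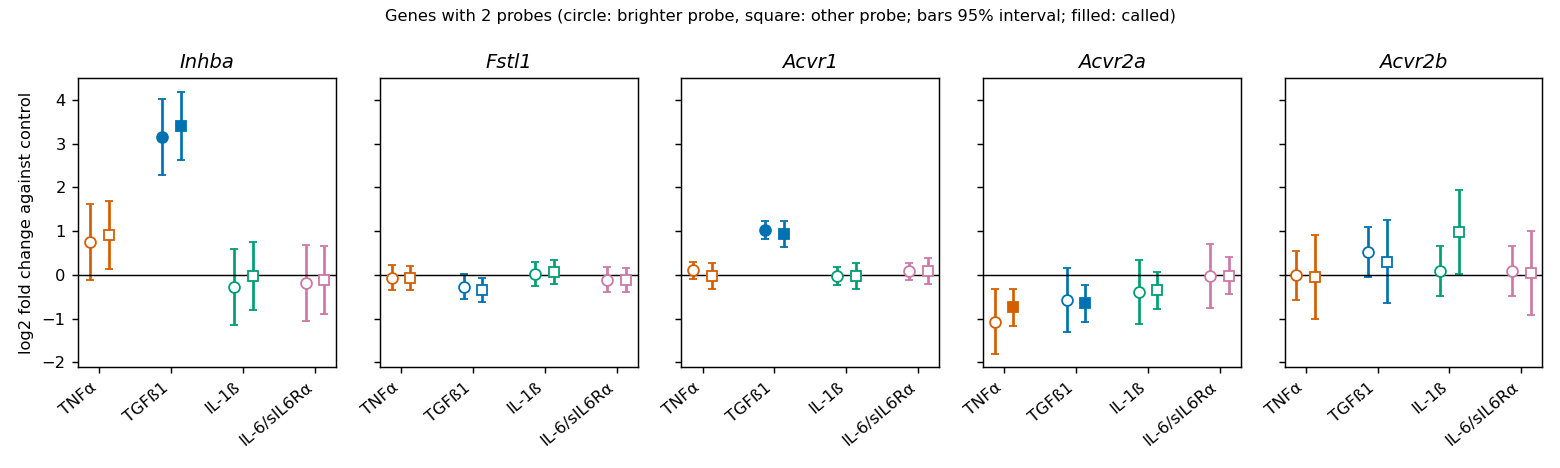
Log2 fold-change against control (y axis) with each treatment (x axis) for the 5 genes with 2 probes, as circles for the brighter probe and squares for the other, with 95% intervals and filled symbols for calls. Both probes of Inhba (3.15 and 3.42) and Acvr1 (1.03 and 0.93) were called with TGFß1, and for Acvr2a only the dimmer probe was called, with TNFα (-0.74) and TGFß1 (-0.65).

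With IL-1β, none of the 9 genes was called, where 0.232% of all probes were, and none passed an unadjusted p below 0.05 (3.61% of all probes). None was called with slide and run as blocks, where 1.1% of all probes were. The log2 fold-changes lay between -0.39 (*Acvr2a*) and 0.35 (*Fst*). The dim second probe of *Acvr2b* was well above background on the 3 IL-1β arrays and on no other array, at levels of -4.33, -4.55 and -4.54 against -5.15, -5.43 and -5.80 in controls. That probe passed the filter on dim probes only through the IL-1β arrays, so a higher level there was built into its selection. It is given as a description, at least 1.27-fold higher and not called (limma). The bright probe gave 0.09 ± 0.26 (SE).

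With IL-6 and its soluble receptor, none of the 9 genes was called either, where 0.058% of all probes were, and 2 of 9 passed an unadjusted p below 0.05 (3.18% of all probes). *Fst* read 0.86, 0.94 and 0.80 on IL-6 arrays 3, 8 and 13, above all controls, as did 2.57% of all probes. Its log2 fold-change was 0.92 ± 0.20 (SE, limma q = 0.236). It was called with slide and run as blocks (0.92, limma q = 0.0273), where 0.787% of all probes were called. *Inhbb* read -1.27, -0.80 and -0.99 and overlapped control 11, with 0.80 ± 0.30 (SE) and a fold of 1.74 that was not called, nor with the blocks (limma, q = 0.0864). The 7 others lay between -0.19 (*Inhba*) and 0.52 (*Acvr1b*).

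The treatments were also compared directly, to order the levels of each gene. TNFα and TGFß1 differed in 5 genes, where 11.8% of all probes were called: TNFα minus TGFß1 was -2.40 for *Inhba*, -1.84 for *Fstl3*, -0.92 for *Acvr1*, 2.20 for *Fst* and 1.36 for *Inhbb* (log2). The same 5 genes separated IL-1β from TGFß1 (16.9% of all probes called) and IL-6 from TGFß1 (16.3%). The *Inhbb* call between IL-1β and TGFß1, at 1.21, was lost without TGFß1 2 (1.07, limma q = 0.0521) and with normexp background correction (0.53, limma q = 0.0706). *Acvr1b* also passed the thresholds between IL-6 and TGFß1, at least 1.63-fold higher with IL-6. It had passed the filter on dim probes only through the IL-1β and IL-6 arrays, where it was brightest, so this difference was built into its selection and is given as a description. It did not pass with normexp (0.23), with the median in place of the 75th percentile (1.21), without the filter (1.23), or without TGFß1 2, TGFß1 12 or IL-6 8.

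With slide and run as blocks, *Acvr2b* and *Acvr1b* joined these 5 genes. *Acvr2b* was called lower with IL-1β than with TGFß1 (-0.61, limma q = 0.000959), where 22.3% of all probes were called, and lower with IL-6 than with TGFß1 (-0.60, limma q = 0.00107), where 21.6% were. Both passed with the slide alone as a block too, where 19.8% and 19.2% of all probes were called. *Acvr1b* passed for TNFα minus TGFß1 (0.81), where 16.1% of all probes were called, and for IL-1β minus TGFß1 (0.87), under the same limit of its selection. These sizes depend on the background, as *Acvr1b* was not well above background on any TGFß1 array. The genes called were then 6 for TNFα against TGFß1, 7 for IL-1β against TGFß1 and 7 for IL-6 against TGFß1.

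Among TNFα, IL-1β and IL-6, few of the genes were called. *Fst* was higher with IL-6 than with TNFα, by 0.93 ± 0.20 (SE; limma, q = 0.00968), the only gene called in that comparison (8.59% of all probes). With slide and run as blocks (14.1% of all probes), IL-6 minus TNFα was also called for *Inhba* (-1.06), *Inhbb* (0.85) and *Acvr2a* (1.06). Between IL-1β and TNFα none was called (4.69%), with 1 of 9 at an unadjusted p below 0.05 (18.6% of all probes), and between IL-1β and IL-6 none (0.399%), with 2 of 9 (4.68%). With the blocks, *Inhba* was called for IL-1β minus TNFα (-1.14, limma q = 0.000316), where 10.5% of all probes were, and *Inhbb* for IL-1β minus IL-6 (-1.08, limma q = 0.015), where 1.77% were. These comparisons share arrays with each other and with those against control.

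In the order of group means, neighbours were called as different at 5 places. *Inhba* ran TGFß1 (5.74 ± 0.12, SD, n = 3), TNFα (3.34 ± 0.56), control (2.59 ± 0.75), IL-6 (2.40 ± 0.55) and IL-1β (2.32 ± 0.49), and the step from TGFß1 to TNFα was called, as was that from TNFα to control with slide and run as blocks. *Fst* ran IL-6 (0.87 ± 0.07), IL-1β (0.29 ± 0.15), control (-0.05 ± 0.36), TNFα (-0.06 ± 0.08) and TGFß1 (-2.26 ± 0.38), with the last step called. *Inhbb* ran IL-6 (-1.02 ± 0.23), control (-1.82 ± 0.62), TNFα (-1.94 ± 0.37), IL-1β (-2.10 ± 0.32) and TGFß1 (-3.31 ± 0.29), again with the last step called. The remaining 2 places were TGFß1 above IL-6 for *Fstl3* (1.23 ± 0.26, SE) and TGFß1 above TNFα for *Acvr1* (0.92 ± 0.09, SE). No neighbours in the orders of *Fstl1*, *Acvr1b*, *Acvr2a* and *Acvr2b* were called as different, except that *Acvr2b* was called lower with IL-6 than with TGFß1, its neighbour above, with the slide as a block (-0.60, limma q = 0.0137) and with slide and run as blocks.

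The genes most like the 3 widest-ranging ones were found by Pearson's r over the 15 arrays among 13478 genes, as a description with no test, since the arrays share treatments and slides. Most like *Inhba* were *Mphosph6* (r = 0.992), *Hbegf*, an EGF-family growth factor (r = 0.987), and *Idh3a*, a subunit of a mitochondrial isocitrate dehydrogenase (r = 0.985). *Hbegf* had a log2 fold-change of 3.13 with TGFß1 and 1.23 with TNFα, both called, while *Idh3a* (1.05) and *Mphosph6* (0.96) had smaller changes with TGFß1. *Fst* was most like *Plpp3*, a lipid phosphate phosphatase (r = 0.979), *Fosl2*, a subunit of AP-1 (r = 0.978), and *Gda*, guanine deaminase (r = 0.970), with log2 fold-changes of -2.03, -0.97 and -4.79 with TGFß1. *Gda* was well above background on 1 of 3 TGFß1 arrays, so the size of its fall depends on the background there. The closest to *Inhbb* were *Tusc1* (r = 0.951), *Atxn7l1* (r = 0.936) and the semaphorin *Sema6b* (r = 0.936). Between the 9 genes themselves, r was 0.926 for *Inhba* with *Acvr1*, 0.869 for *Inhbb* with *Fst*, and -0.866 for *Inhba* with *Fst*.

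**Figure D4:**
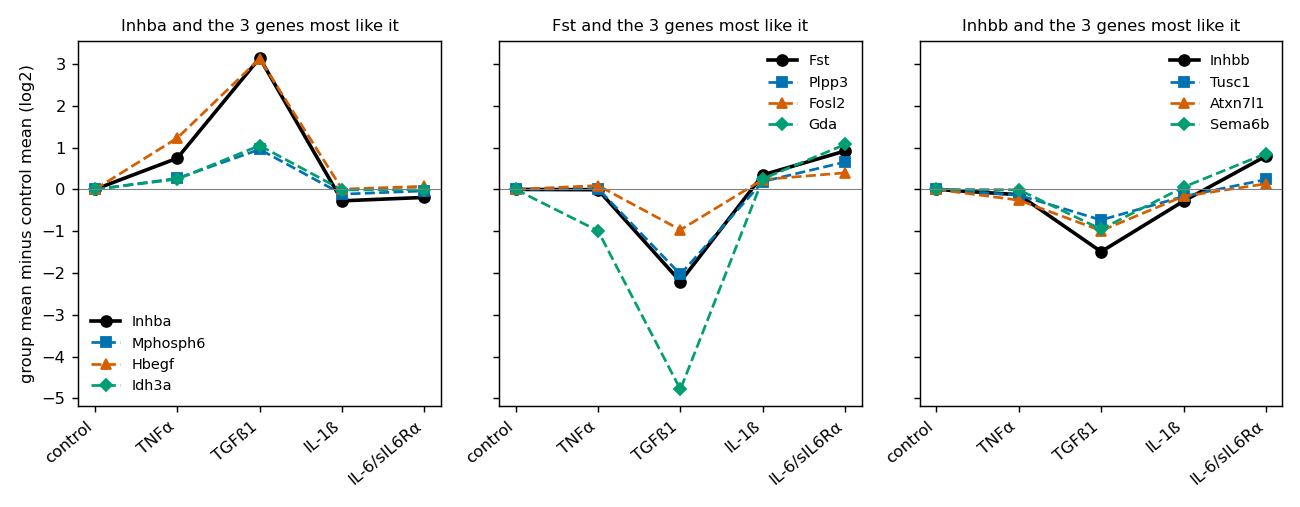
Group means minus the control mean (y axis, log2) in the 5 groups (x axis) for Inhba, Fst and Inhbb (black) and the 3 genes most like each (dashed). Hbegf ran beside Inhba in size (3.13 and 3.15 with TGFß1), Gda, dim with TGFß1, is plotted at -4.79 beside -2.20 for Fst, and Tusc1, Atxn7l1 and Sema6b fell less than Inhbb.

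Other genes of the pathway were read from fixed lists. Of 14 genes of the SMAD2/3 pathway inside the cell, TGFß1 raised 5 and lowered 1, where 7.51% of all probes were called higher and 10.4% lower. *Pmepa1* (2.30), *Smad7* (2.02), *Skil* (1.53) and *Tgif1* (1.22), all known as feedback inhibitors or repressors of this pathway, rose, and *Smad6*, an inhibitor of BMP signalling, fell by 1.92 on the log2 scale. The mediators *Smad2*, *Smad3* and *Smad4* were not called, at -0.13, -0.05 and 0.26. The median over the list was 0.34, against 0.07 over all probes tested. TNFα raised *Tgif1* (0.82) and lowered *Smad6* (-1.59), where 4.09% of all probes were called higher and 5.96% lower. With IL-1β and IL-6 none of the 14 was called, where 0.232% and 0.058% of all probes were.

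Of 13 other receptors and co-receptors of the superfamily, 12 were tested, with 2 higher and 3 lower with TGFß1 (7.51% and 10.4% of all probes). *Bmpr1b*, a type I BMP receptor, was at least 41.7-fold higher with TGFß1 and at least 3.03-fold higher with TNFα, and was not well above background on the controls. It passed the filter on dim probes only through the TNFα and TGFß1 arrays. A higher level there was thus built into its selection, and its calls are given as a description. *Tgfbr3* (betaglycan), which also serves as an inhibin co-receptor, fell by 1.58, *Acvrl1* (ALK1) by 1.28 and *Tgfbr2*, the type II TGF-ß receptor, by 0.90 on the log2 scale. The type II BMP receptor *Bmpr2* rose by 0.78, and *Acvr1c* (ALK7), another activin-class type I receptor, did not pass the filter. With IL-1β and IL-6 none was called, where 0.232% and 0.058% of all probes were.

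The other superfamily ligands and antagonists were mostly dim, and 5 of 10 were tested. *Inha*, the alpha subunit that pairs with a beta subunit to form inhibin, did not pass the filter, and neither did *Inhbc*, *Inhbe*, *Mstn* and *Lefty1*. *Gdf11*, which signals through the activin type II receptors, rose by 1.36 ± 0.22 (SE) with TGFß1 (limma, q = 0.00083), and *Gdf1* fell by 0.72. These were the only calls with TGFß1 among the 5, where 7.51% of all probes were called higher and 10.4% lower. Of 14 other proteins with a follistatin-like domain, 8 were tested, and TGFß1 raised *Tmeff1* (3.02), *Smoc1* (2.71, well above background on 2 of 3 controls) and *Smoc2* (1.68) and lowered none, against 7.51% of all probes called higher and 10.4% lower. TNFα raised *Smoc2* (1.37) and lowered *Sparcl1* (-3.97), against 4.09% and 5.96%. Of the proprotein convertases, which cut activin precursors, *Furin* rose by 0.78 with TGFß1, where 7.51% of all probes were called higher, and *Pcsk7* was not called. With IL-1β and IL-6, none of the genes on these 3 lists was called, where 0.232% and 0.058% of all probes were.

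**Figure D5:**
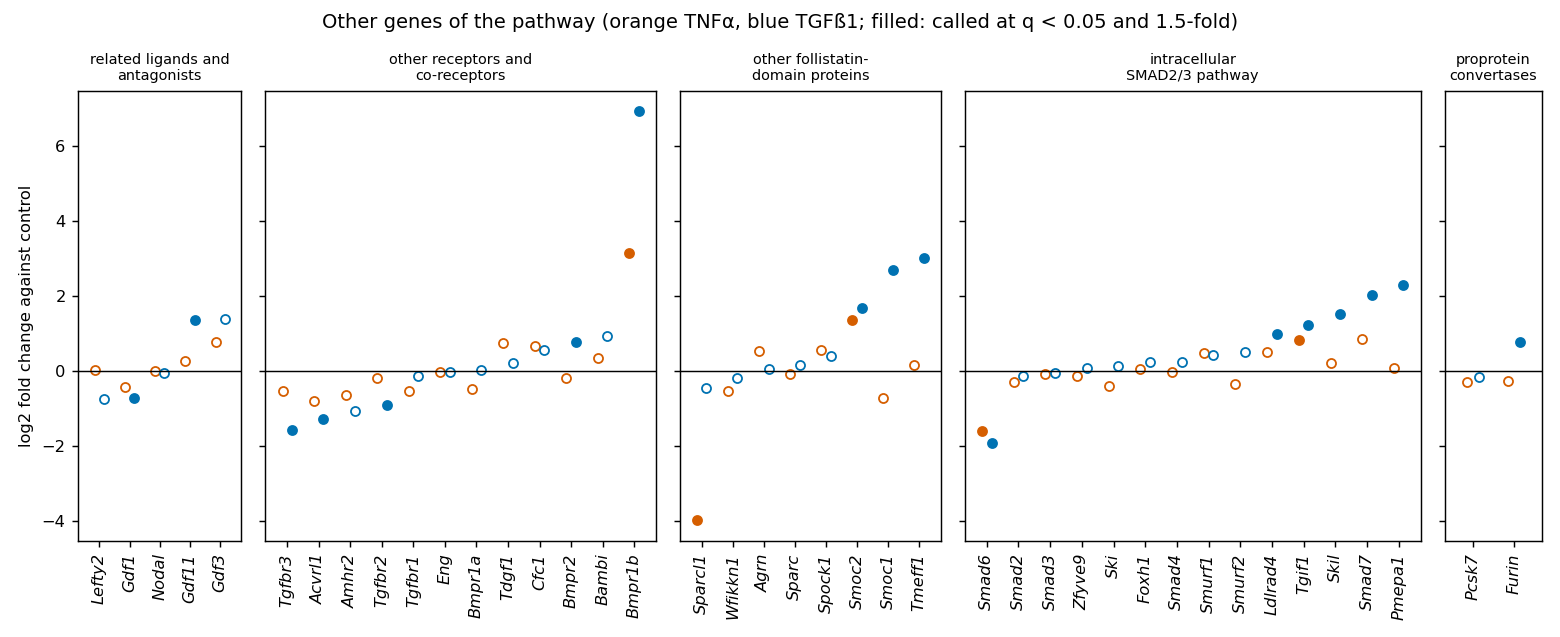
Log2 fold-change against control (y axis) with TNFα (orange) and TGFß1 (blue) for the tested genes of 5 pathway lists (x axis), filled where called. Bmpr1b stands highest with TGFß1 and is dim in controls, so its plotted value depends on the background, and its fold is given as a bound of at least 41.7-fold. Bmpr1b passed the filter on dim probes only through the TNFα and TGFß1 arrays. Sparcl1 stands lowest with TNFα (-3.97).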

How the data were processed

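RNA of MEFs was labelled with Cyanine 3 and hybridised to 15 one-color arrays. The authors read the scans with Agilent Feature Extraction 10.7.3.1. The deposited values are intensities, 1 processed signal per spot, which the software had corrected for background and for spatial trends. It also puts a small positive surrogate in place of signals too low to measure, and nothing was normalized between arrays. The deposited series-wide table repeats these values.

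Of 62976 spots per array, 59305 are not controls. Spots marked as outliers were left out, log2 signals were averaged per probe, and the 75th percentile over the probes of the array was subtracted. The surrogate can understate the fold-change of dim probes. Tests were run on the 29334 probes that were well above background in all arrays of 1 or more groups, and 48.3% to 54.9% of probes per array carried that mark. Where, in the main fit, a gene was well above background on all arrays of 1 group and on none of the other, the fold is a bound. It is set against the dimmest signal well above background on each array. Other differences with a group where the gene was not well above background are plain differences, whose size depends on the background. Precision is limited by the number of arrays. Names came from the RefSeq transcript of a probe through a table of GRCm38.p6, which covered 33767 probes.

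Groups were compared in 1 fit of all 15 arrays with limma 3.58.1 (R 4.3.3), two-sided moderated tests and Benjamini-Hochberg adjustment. The q threshold is that of the study's methods, and the fold threshold the one used in its results. Arrays are replicates by their labels. The study describes the control, TNFα and TGFß1 arrays as independent experiments; for the IL-1β and IL-6 arrays no source used here says so, and their spread may be technical. The labels do not tie arrays of different groups to 1 experiment, but arrays of the same run of label numbers deviated together: with group means and slide removed, r was 0.114 to 0.671 in all 30 pairs of the same run, and over 0.1 in 2 of 60 pairs of different runs. Without removing the slide, 12 of 30 and 28 of 60 pairs had r over 0.1. Slide and run were therefore used as blocks in a further fit, whose value is given in the text or in the account of the settings where it changes a call of the 9 genes. The fit was tested on simulated data with known changes in the TGFß1 arrays. Of 50 probes lowered by 1 log2 unit 27 were called, and of 50 raised by 1 unit 33 were. At 2 units, 43 of 50 lowered and 47 of 50 raised probes were called, and 9 of 29056 unchanged ones. A change that was not called can thus still be present. The simulated arrays varied independently, without deviations shared by slide or run. Only these few probes were changed among 29256, while 17.9% of all probes were called with TGFß1 in the data. The adjustment depends on the share of changed probes, so the simulated call rates are not those of the real comparisons. Other settings were background correction (normexp, offset 50, on the median signal, since the files used here hold no mean signal), quantile normalization, the median in place of the 75th percentile, the filters, a variance trend and leaving out each array of the groups compared. The series-wide table was also tried, which holds the same values and could not change a call. Keeping the spots marked as outliers was another setting, and none of the 9 genes had such a spot.

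The genes, the pathway lists and the alternatives were chosen with earlier results of these data known. All 9 genes are named. From each pathway list, up to 4 genes called with at least 1 treatment are named, largest change first, and other genes named were chosen for their role after their values were seen.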

Additional observations from a re-analysis of the deposited data

How the results depend on the processing

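For the 9 genes, the number called with TGFß1 against control was 5 in the main fit and 5 to 6 with any 1 control or TGFß1 array left out. TNFα against TGFß1 gave 5 with each TNFα or TGFß1 array left out. Arrays were left out only from the 2 groups compared, here and below. With slide and run as blocks, the number called rose from 0 to 2 for TNFα against control (*Inhba* and *Acvr2a*), from 0 to 1 for IL-6 against control (*Fst*), from 1 to 4 for IL-6 against TNFα (*Fst*, *Inhba*, *Inhbb* and *Acvr2a*), from 0 to 1 for IL-1β against TNFα (*Inhba*) and from 0 to 1 for IL-1β against IL-6 (*Inhbb*). With the run as a block alone, these numbers were 2, 0, 3, 1 and 1. The share of all probes called rose with slide and run as blocks too. In the same order, it went from 10.0% to 15.4%, 0.058% to 0.787%, 8.59% to 14.1%, 4.69% to 10.5% and 0.399% to 1.77%. With slide and run as blocks, the number of genes called also rose from 5 to 6 for TGFß1 against control (*Acvr2b*), from 5 to 6 for TNFα against TGFß1 (*Acvr1b*), from 5 to 7 for IL-1β against TGFß1 (*Acvr1b* and *Acvr2b*) and from 6 to 7 for IL-6 against TGFß1 (*Acvr2b*). The share of all probes rose there from 17.9% to 22.7%, 11.8% to 16.1%, 16.9% to 22.3% and 16.3% to 21.6%. TNFα against control gave 1 (*Acvr2a*) with normexp, quantile normalization, the median in place of the 75th percentile, or only the 2 groups compared, and 0 to 1 with an array left out. IL-6 against TNFα gave 2 with only the 2 groups compared, and 1 to 2 with an array left out. The counts with the run alone, with other processing or with an array left out have no share of all probes beside them in this paragraph. They are a description and no result about the 9 genes as a set. No alternative reversed a call of the 9 genes. Over all alternatives and comparisons of single genes, 1538 values kept their direction and their side of the threshold, 35 newly passed it, and 8 no longer did. Another 66 changed sign without being called in either fit, and the cause was not tested. The 1538 include the values from the series-wide table, which could not differ from the main fit.

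Over all probes, slide and run as blocks gave 4522 calls for TNFα against control (2948 without), 323 for IL-1β (68 without), 231 for IL-6 (17 without), 3081 for IL-1β against TNFα (1377 without), 4142 for IL-6 against TNFα (2519 without) and 519 for IL-1β against IL-6 (117 without). The run alone gave 157 for IL-1β and 61 for IL-6 against control, 2390 for IL-1β against TNFα and 305 for IL-1β against IL-6, and the slide alone gave 106, 37 and 196 for IL-1β and IL-6 against control and IL-1β against IL-6. Normexp, applied to unprocessed medians, gave 3472 for TGFß1 against control (5250 in the main fit), 3178 for IL-1β against TGFß1 (4963) and 3162 for IL-6 against TGFß1 (4770). The median in place of the 75th percentile gave 8 for IL-6 against control, 872 for IL-1β against TNFα and 66 for IL-1β against IL-6, and no filter gave 9, 886 and 60. Fits of the 2 groups compared gave 20 for IL-1β and 0 for IL-6 against control, 722 for IL-1β against TNFα and 6 for IL-1β against IL-6. With an array left out, the calls ranged from 1847 to 2642 for TNFα, 40 to 55 for IL-1β and 4 to 18 for IL-6 against control, 671 to 1202 for IL-1β against TNFα, 3119 to 5138 for IL-1β against TGFß1, 3102 to 4880 for IL-6 against TGFß1, and 53 to 82 for IL-1β against IL-6. The labels give the groups no shared replicate number, and the block by run, which holds each group once, is the paired analysis made here. *Acvr1b* and the second probe of *Acvr2b* were dim, which limits what can be read from them.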
